A study of Thermothelomyces thermophilus with 18 samples.

Results

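The genes described here are 28 of the 9109 genes counted in the thermophilic fungus Myceliophthora thermophila, namely those whose transcripts rose late on cellulose in the wild type. They were chosen by measured values in 4 of the 6 groups. On counts scaled by the median of ratios, with 1 added to each group mean, a gene had to average at least 100 in MtWT after 6 h on Avicel, at least 3 times its mean in MtWT after 4 h on Avicel and at least 3 times its mean in MtWT on starch. It also had to stay under 2 times the starch level in MtWT at 4 h on Avicel, and in the deletion strain at 4 h on Avicel it had to stay under 2 times the MtWT level.

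The 6 groups held 3 libraries each, described by the study as independent biological replicates. The strains were ΔMttrc-1, which lacks the gene of the C2H2 zinc finger transcription factor MtTRC-1, and the wild type MtWT. Mycelium of both had grown for 16 h in 2% glucose at 45 °C and was then moved to 2% starch for 4 h or to 2% Avicel for 4 h or 6 h. The deletion was made by genome editing, complemented strains are not analysed here, and whether all ΔMttrc-1 cultures came from 1 transformant is not given in the sources used here. Values of the deleted gene are not reported here, and strains are called as in the labels. In bulk RNA, fewer transcribing cells and less transcript per cell cannot be told apart. There was no starch group at 6 h, so every comparison of 6 h on Avicel with starch also carries the difference in time.

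Avicel is an insoluble, microcrystalline cellulose. A fungus can take up nothing from it until secreted cellulases and lytic polysaccharide monooxygenases (LPMOs) have released soluble sugars, and these sugars in turn act as signals for gene expression. Starch, a soluble glucose polymer, is opened by amylases and glucoamylase and calls for a different set of secreted enzymes. The load of secreted protein is folded in the endoplasmic reticulum (ER), which adjusts its own capacity through the unfolded protein response (UPR).

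Total counts ranged from 17250057 to 24387079 per library. Of the 9109 genes, 7286 reached the minimum mean of 100 in MtWT at 6 h on Avicel, 140 of these stood at least 3 times above MtWT at 4 h on Avicel, and 65 of those also stood at least 3 times above MtWT on starch. The limit on an early rise in MtWT left 52 genes, and the limit on ΔMttrc-1 at 4 h left the 28 members. Just inside the threshold of 3 for the rise between 4 h and 6 h were Mycth_86049 at 3.04, Mycth_2309323 at 3.06 and Mycth_2295258 at 3.08. Just outside were Mycth_2298010 at 2.93, Mycth_2302957 at 2.90 and Mycth_88099 at 2.84.

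Little is annotated about these genes. Descriptions taken from the study were at hand for 2 members. Mycth_108836 is described as an FAD-dependent pyridine nucleotide-disulphide oxidoreductase, a family of flavin enzymes that move electrons between NADH or NADPH and a second substrate. Mycth_112802 carries a crotonase core, the fold of enzymes that act on acyl groups bound to coenzyme A, among them enoyl-CoA hydratases of fatty acid breakdown. No role is given here for the others. None of the 11 listed cellulase and LPMO genes, the 10 listed UPR and ER genes and the 2 listed starch genes was a member. All 28 members were matched to a reference locus tag, and 0 of them overlapped another reference gene. The gene length implied by counts and RPKM (the authors' reads scaled by gene length and library size) ran between 469 and 3168 bases over the members, with a median of 896 bases over the members and 1542 bases over all genes.

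The values that chose the members describe a sharp late rise from a low level. At 6 h on Avicel the MtWT level was a median of 4.59 times that at 4 h, with a range of 3.04 to 308 times, and a median of 5.15 times the starch level. Between 4 h on Avicel and starch the members had a median ratio of 0.97 in MtWT. The range was 0.23 to 1.73, its upper side limited by the rule. In MtWT, 5 members were called lower at 4 h on Avicel than on starch and 0 higher. The rule left almost no room for a call higher, which needs over 2 times the starch level. The 0 is therefore a product of the choice, and both counts are a description. Over all 8573 tested genes, 840 were called lower and 853 higher. As a share of all counts, the members together took 0.0374% ± 0.0004 in ΔMttrc-1 and 0.0201% ± 0.0002 in MtWT on starch, 0.0110% ± 0.0005 in ΔMttrc-1 and 0.0126% ± 0.0008 in MtWT at 4 h on Avicel, and 0.0215% ± 0.0002 in ΔMttrc-1 and 0.0786% ± 0.0013 in MtWT at 6 h on Avicel (SD, n = 3 each). Set per length, the median member stood at the 50.8th percentile of all genes by RPKM in MtWT at 6 h on Avicel and between the 17.7th and 22.9th percentile in the other 5 groups. These genes were thus of middling abundance at their highest, and replicate libraries of that group differed by a median coefficient of variation of 7.8%.

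**Figure D1:**
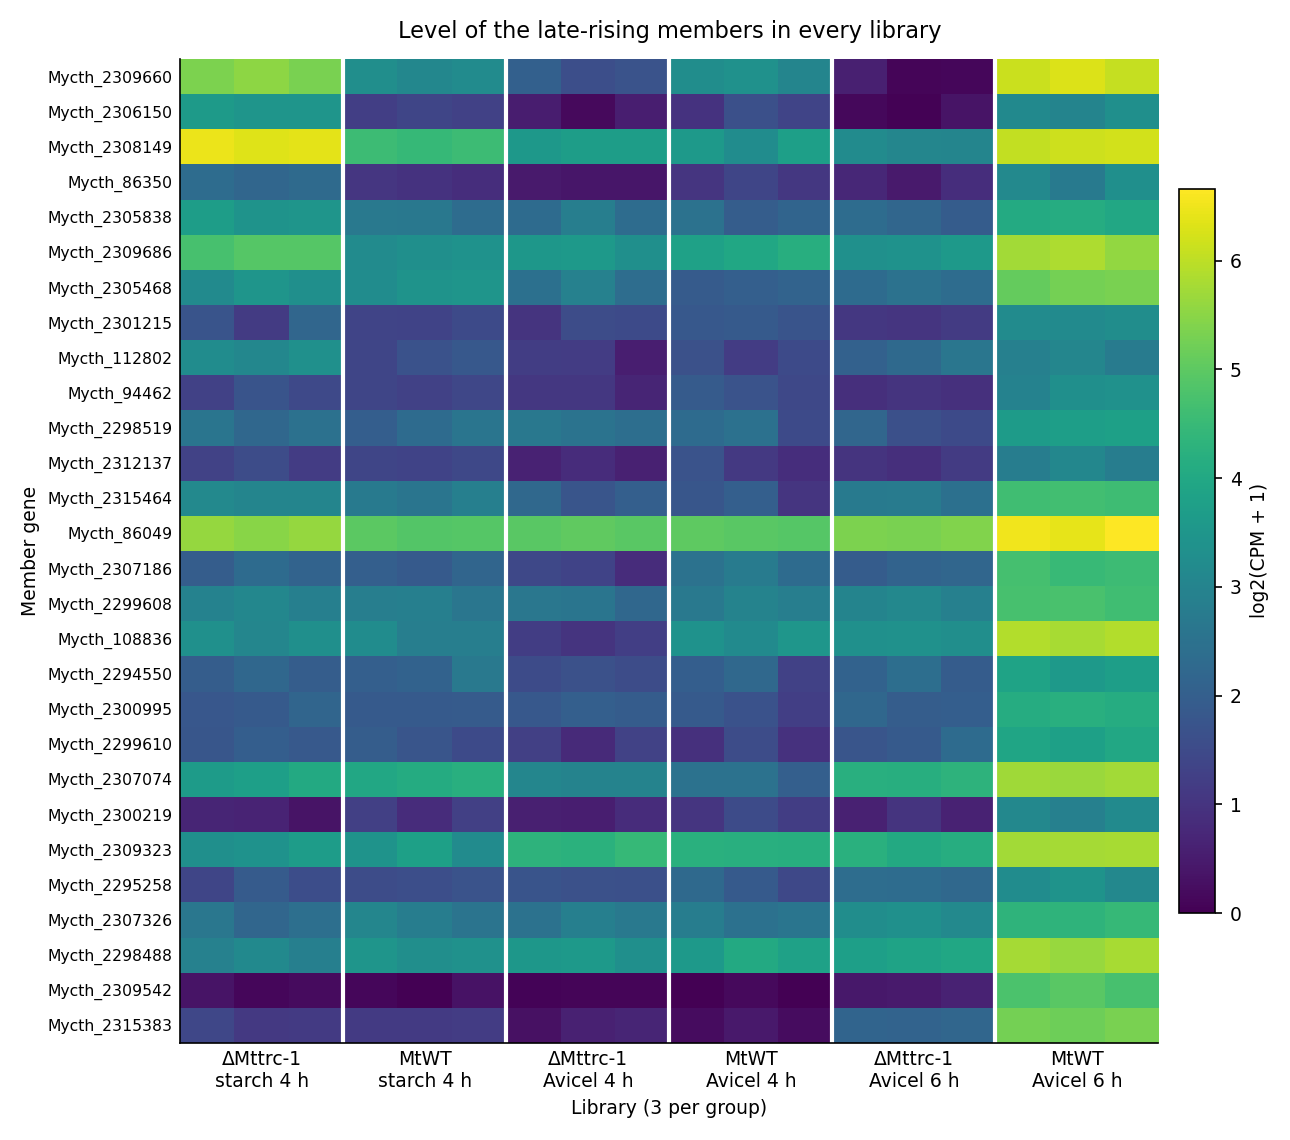
Level of each of the 28 members (rows) in each of the 18 libraries (columns, 3 per group), as log2 of CPM (counts scaled by TMM to a common library size) plus 1. Rows run down by the log2 fold change of ΔMttrc-1 at 6 h on Avicel over ΔMttrc-1 on starch, lowest at the top, and the MtWT columns at 6 h on Avicel are the brightest in 25 rows by group mean, and in the other 3 the ΔMttrc-1 starch columns are brighter.

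Neither ΔMttrc-1 on starch nor ΔMttrc-1 at 6 h on Avicel entered the rule, so this pair could be used to ask whether the genes also stood higher late on Avicel than on starch without MtTRC-1. They did not do so as a group. Of the 28 members, 2 were called higher and 9 lower in ΔMttrc-1 at 6 h on Avicel than in ΔMttrc-1 on starch, at a Benjamini-Hochberg adjusted p under 0.05 over all 8573 tested genes and an absolute log2 fold change over 1 in edgeR's quasi-likelihood test. These are 7.14% and 32.1% of the members, where 6.19% of all tested genes were called higher and 6.88% lower. The members' median log2 fold change was -0.14, and that of all tested genes was -0.0015. Libraries of the 2 groups did not overlap for 7 members that were higher and 13 that were lower, and they overlapped for 8. Over all tested genes the libraries stood apart upwards in 37.4% and downwards in 38.6%, so separation of 3 libraries from 3 was common. All 28 members passed the filter on low counts over the 6 groups. With only these 2 groups 27 passed, without Mycth_2309542, and of those 1 was called higher and 9 lower.

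**Figure D2:**
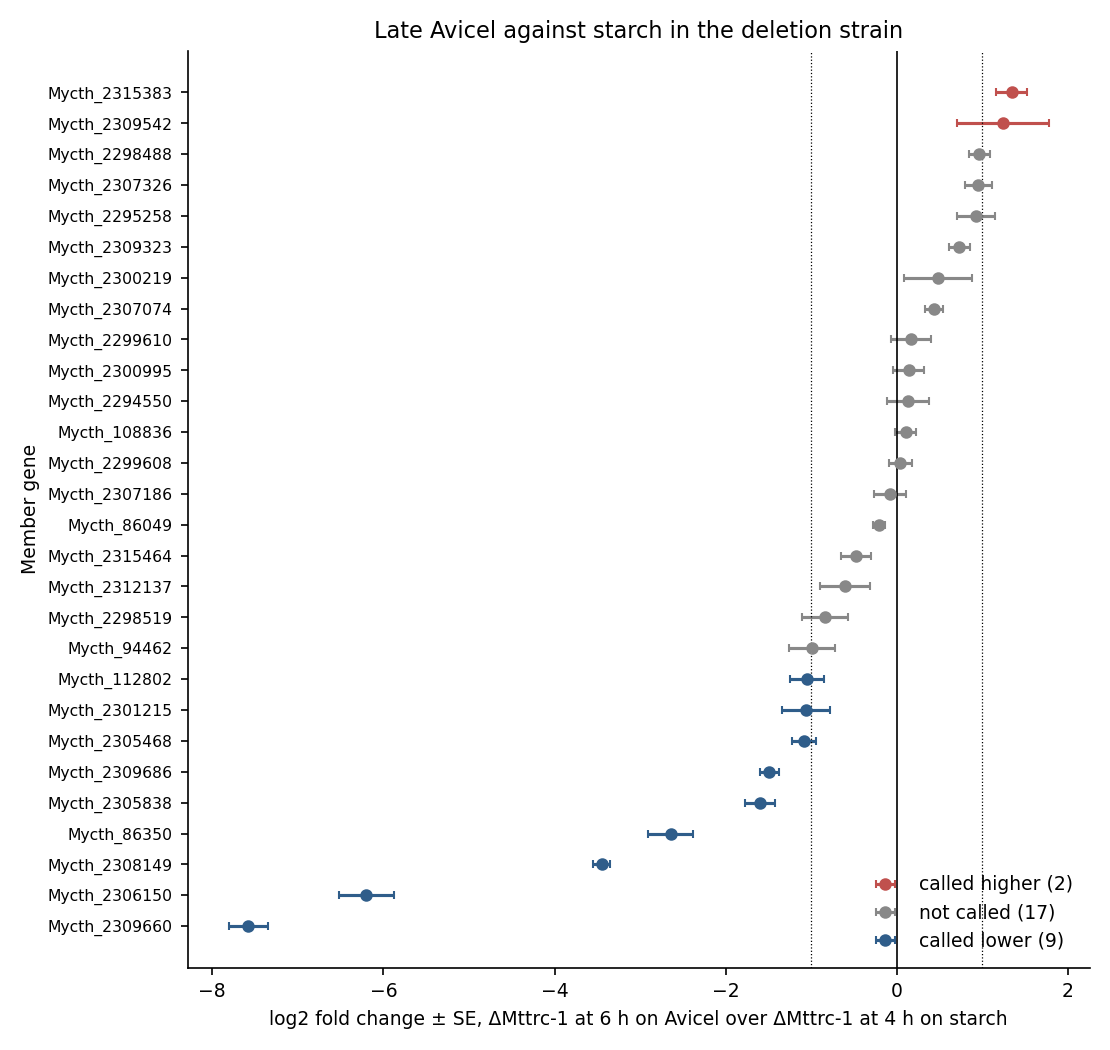
Log2 fold change with its standard error (bars) for each of the 28 members in ΔMttrc-1, at 6 h on Avicel over 4 h on starch, with 3 libraries in each group. Dotted lines mark a log2 fold change of 1 in each direction, red points are the 2 genes called higher, blue points the 9 called lower and grey points the 17 not called, and the values run from -7.58 to 1.34.

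Mycth_2309660 showed the widest gap. It had 0.487, 0.0707 and 0.0781 CPM in the ΔMttrc-1 libraries at 6 h on Avicel, against 39.6, 45.6 and 39.2 CPM in the ΔMttrc-1 libraries on starch. The Avicel value rests on 17 counts in 3 libraries, 13 of them in replicate 1, against 2838 counts on starch. The log2 fold change was -7.58 ± 0.23 (SE), with an edgeR adjusted p of 1.22e-18. In MtWT the same gene reached 68.9, 78.7 and 66.7 CPM at 6 h on Avicel, which made it the second most abundant member there by CPM.

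Mycth_2306150 followed the same course at a lower level. Its libraries had 0.112, 0.0353 and 0.273 CPM in ΔMttrc-1 at 6 h on Avicel and 11.3, 10.1 and 10.04 CPM in ΔMttrc-1 on starch, 11 against 721 counts, a log2 fold change of -6.20 ± 0.32 (SE; edgeR adjusted p of 5.71e-15). Mycth_2308149, the third most abundant member in MtWT at 6 h on Avicel, had 8.36, 7.38 and 7.11 CPM in ΔMttrc-1 at 6 h on Avicel against 87.5, 79.9 and 82.7 CPM in ΔMttrc-1 on starch. Its log2 fold change was -3.45 ± 0.098 (SE; edgeR adjusted p of 1.27e-20). In each of these 3 genes every Avicel library of ΔMttrc-1 lay far below every starch library.

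Mycth_86350 stood at 0.675, 0.389 and 0.820 CPM in ΔMttrc-1 at 6 h on Avicel and at 4.13, 3.62 and 3.97 CPM in ΔMttrc-1 on starch, a log2 fold change of -2.64 ± 0.26 (SE; edgeR adjusted p of 2.57e-09). Mycth_2305838 and Mycth_2309686 were lower as well, by log2 fold changes of -1.60 ± 0.17 and -1.49 ± 0.11. In Mycth_2309686, the longest member, this was 9.91 ± 1.00 CPM in ΔMttrc-1 at 6 h on Avicel against 27.8 ± 2.15 CPM in ΔMttrc-1 on starch (SD, n = 3). These 6 genes kept the call when each of the 6 libraries was left out in turn, and when the null hypothesis was a 2-fold difference.

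The other 3 calls of a decrease lay close to the threshold. The crotonase gene Mycth_112802 had 3.22, 3.85 and 5.08 CPM in ΔMttrc-1 at 6 h on Avicel against 8.46, 7.51 and 9.13 CPM in ΔMttrc-1 on starch, a log2 fold change of -1.05 ± 0.20. Mycth_2305468 differed by -1.08 ± 0.14. Mycth_2301215 differed by -1.06 ± 0.28 with libraries that overlapped, at 1.12, 1.02 and 1.25 CPM at 6 h on Avicel against 2.32, 1.24 and 3.58 CPM on starch. Without ΔMttrc-1 starch replicate 3, Mycth_2301215 stood at -0.67 and Mycth_112802 at -0.98, and without ΔMttrc-1 starch replicate 2, Mycth_2305468 stood at -0.99. Without ΔMttrc-1 Avicel 6 h replicate 1 the value of Mycth_112802 was -0.91, and without replicate 2 of that group Mycth_2301215 was at -0.99. All of these are smaller than the log2 fold change of 1 that a call needed.

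The increases were those of Mycth_2315383 and Mycth_2309542. Mycth_2315383 had 3.41, 3.32 and 3.59 CPM in ΔMttrc-1 at 6 h on Avicel and 1.68, 1.15 and 1.19 CPM in ΔMttrc-1 on starch, a log2 fold change of 1.34 ± 0.19 (SE; edgeR adjusted p of 7.83e-07). In MtWT at 6 h on Avicel its libraries stood at 37.6, 35.6 and 39.1 CPM, so the level in the deletion strain remained at a small part of that. Mycth_2309542 was nearly silent outside MtWT at 6 h on Avicel, the group that chose it, and with only the 2 groups compared its counts were too low to be tested. Its 34 counts in ΔMttrc-1 at 6 h on Avicel and 12 counts in ΔMttrc-1 on starch gave a log2 fold change of 1.24 ± 0.53 (SE; edgeR adjusted p of 0.0446). This call was lost with a replicate block (adjusted p of 0.0563 in edgeR), without ΔMttrc-1 starch replicate 2 or 3 and without ΔMttrc-1 Avicel 6 h replicate 2 or 3, with log2 fold changes between 0.94 and 1.30 when one of these libraries was left out.

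Among the 17 members without a call, 9 had an adjusted p under 0.05 in edgeR with a log2 fold change short of 1. Libraries of these 17 stood apart upwards in 5, apart downwards in 5 and overlapped in 7. Mycth_2298488, Mycth_2307326 and Mycth_2295258 came nearest to a call upwards, with log2 fold changes of 0.96 ± 0.12, 0.95 ± 0.16 and 0.93 ± 0.22. Mycth_2298488 had 12.6, 13.6 and 14.7 CPM in ΔMttrc-1 at 6 h on Avicel against 6.61, 7.96 and 6.36 CPM in ΔMttrc-1 on starch. Nearest downwards were Mycth_94462 at -0.99 ± 0.27 and Mycth_2298519 at -0.84 ± 0.26. Each of these 5 passed the threshold when some single library was left out: Mycth_2298488 without starch replicate 2 (1.07) or Avicel replicate 1 (1.02), Mycth_2307326 without starch replicate 1 (1.10) or Avicel replicate 3 (1.01), Mycth_2295258 without starch replicate 2 (1.18), Mycth_94462 without starch replicate 1 (-1.15), starch replicate 3 (-1.01) or Avicel replicate 2 (-1.05), and Mycth_2298519 without Avicel replicate 1 (-1.19).

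The flavin enzyme gene Mycth_108836 had 9.19, 9.36 and 8.71 CPM at 6 h on Avicel against 9.14, 7.29 and 8.89 CPM on starch, which overlapped. Its log2 fold change of 0.11 ± 0.12 can be set beside 58.7, 54.3 and 58.3 CPM in MtWT at 6 h on Avicel. Mycth_86049, the most abundant member, had 40.0, 39.1 and 41.5 CPM at 6 h on Avicel against 47.9, 43.5 and 47.8 CPM on starch, a log2 fold change of -0.21 ± 0.068 without overlap. Mycth_2309323 stood at 16.7 ± 1.10 CPM against 10.1 ± 1.49 CPM on starch, and Mycth_2307074, the shortest member, at 17.7 ± 0.85 CPM against 13.1 ± 2.00 CPM on starch (SD, n = 3 each). Their log2 fold changes were 0.73 ± 0.12 and 0.43 ± 0.11. The others, Mycth_2300219, Mycth_2299610, Mycth_2300995, Mycth_2294550, Mycth_2299608, Mycth_2307186, Mycth_2315464 and Mycth_2312137, lay between -0.61 and 0.48.

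Scaling bears on this balance. With counts divided by library totals in place of TMM, the members called in ΔMttrc-1 at 6 h on Avicel against ΔMttrc-1 on starch were 5 higher and 6 lower. The median of all tested genes was then at 0.09. Calls over all tested genes in this comparison were 617 higher and 527 lower with library totals, against 531 higher and 590 lower with TMM.

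In 3 members, Mycth_2308149, Mycth_2306150 and Mycth_112802, the group with the highest mean was ΔMttrc-1 on starch. They had 83.3 ± 3.85, 10.5 ± 0.71 and 8.37 ± 0.81 CPM in ΔMttrc-1 on starch against 69.5 ± 4.01, 7.97 ± 0.97 and 6.55 ± 0.77 CPM in MtWT at 6 h on Avicel (SD, n = 3). In these 3 genes no library of one group reached into the range of the other. This pair of groups differs in strain, medium and time and was not tested.

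**Figure D3:**
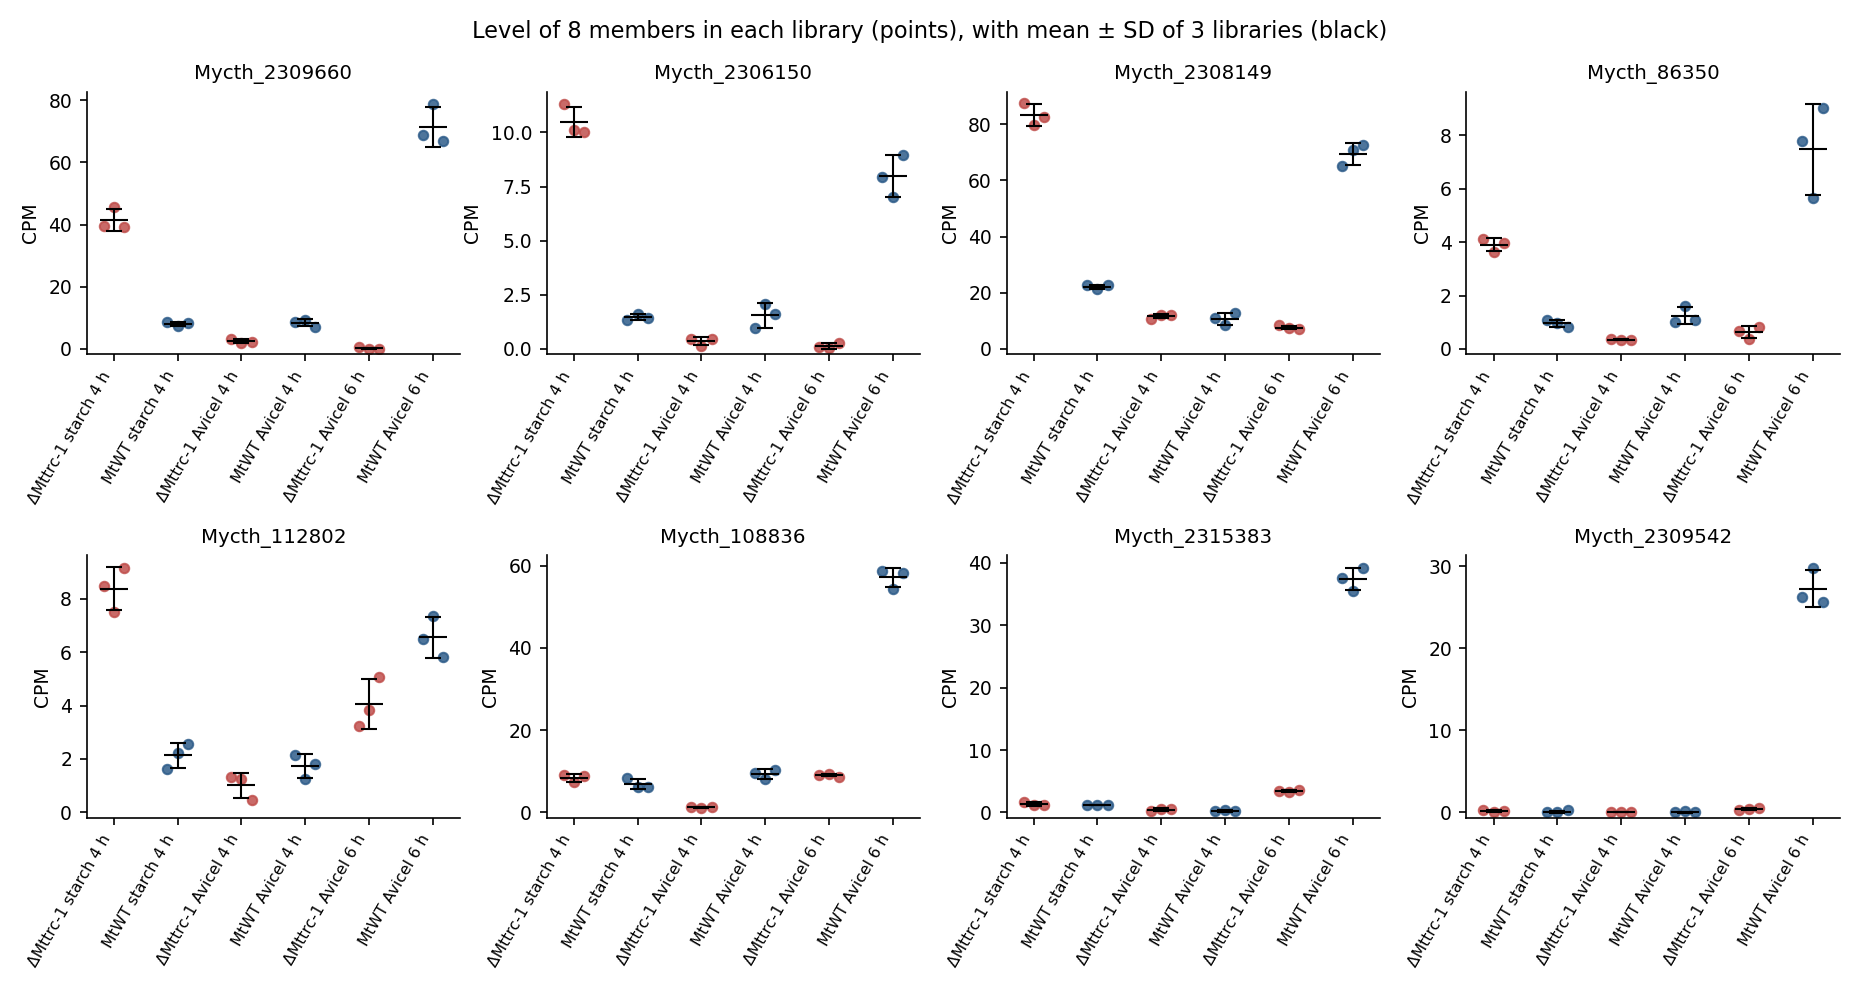
CPM of 8 members in each library (points, ΔMttrc-1 in red and MtWT in blue), with the mean and SD of 3 libraries in black, each panel on its own axis from 0. The upper row and Mycth_112802 show high levels in ΔMttrc-1 on starch and in MtWT at 6 h on Avicel, whereas Mycth_108836, Mycth_2315383 and Mycth_2309542 are high in MtWT at 6 h on Avicel only, at 57.1, 37.4 and 27.2 CPM on average.

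At 6 h on Avicel the ΔMttrc-1 libraries lay below the MtWT libraries in all 28 members, with no overlap, where over all tested genes they lay apart downwards in 39.3% and upwards in 40.4%. High values in MtWT at 6 h on Avicel chose the genes, which favours lower values in the other strain, so the differences are given as a description. Of the members, 27 were called lower and 0 higher, where 12.9% of all tested genes were called lower and 8.55% higher. No member had an unadjusted p under 0.05 upwards in edgeR, and DESeq2 also called 0 higher. The median log2 fold change was -2.39, with a range from -8.36 to -0.70. With library totals the median of all tested genes moved to 0.36 and the calls over all genes to 1544 higher and 704 lower, against 733 higher and 1110 lower with TMM, and the members called lower numbered 24.

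The largest of these differences belonged to Mycth_2309660, at -8.36 ± 0.23. Mycth_2309542 had 0.337, 0.389 and 0.547 CPM in ΔMttrc-1 against 26.3, 29.8 and 25.6 CPM in MtWT at 6 h on Avicel, a log2 fold change of -5.99 ± 0.26. For Mycth_2306150 the values were 0.140 ± 0.12 CPM in ΔMttrc-1 and 7.97 ± 0.97 CPM in MtWT, and the difference was -5.80 ± 0.33. Next came Mycth_86350 at -3.57, Mycth_2315383 at -3.44 and Mycth_2300219 at -3.41, the last with 0.687 ± 0.26 CPM in ΔMttrc-1 and 7.41 ± 0.87 CPM in MtWT (SD, n = 3 each).

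The smallest difference at 6 h on Avicel was that of the crotonase gene Mycth_112802, which was not called, with 4.05 ± 0.94 CPM in ΔMttrc-1 and 6.55 ± 0.77 CPM in MtWT and a log2 fold change of -0.70 ± 0.21. Mycth_2295258 differed by -1.10, and by -0.998 without MtWT Avicel 6 h replicate 2, which is short of a call. Mycth_86049, Mycth_2307326, Mycth_2307074 and Mycth_2309323 differed by -1.19, -1.20, -1.53 and -1.68. Mycth_86049 had 40.2 ± 1.17 CPM in ΔMttrc-1 against 91.9 ± 8.18 CPM in MtWT.

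On starch the deletion was accompanied by a higher level of part of the members. Of the 28, 7 were called higher and 1 lower in ΔMttrc-1 than in MtWT at 4 h on starch, 25.0% and 3.57%, where 4.12% of all tested genes were called higher and 3.86% lower. The MtWT starch libraries took part in the choice as the low side, and these calls too are a description. The median log2 fold change of the members was 0.20 and that of all tested genes was -0.01.

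Mycth_2306150 led with 11.3, 10.1 and 10.04 CPM in ΔMttrc-1 against 1.35, 1.62 and 1.45 CPM in MtWT on starch, a log2 fold change of 2.83 ± 0.22. Mycth_2309660 had 41.4 ± 3.59 CPM in ΔMttrc-1 against 8.16 ± 0.63 CPM in MtWT, which is 2.34 ± 0.13 on the log2 scale. Mycth_86350 followed at 2.03 ± 0.25. The crotonase gene Mycth_112802 had 8.46, 7.51 and 9.13 CPM in ΔMttrc-1 against 1.64, 2.22 and 2.55 CPM in MtWT, or 1.96 ± 0.22. In these genes the 2 strains were well separated on starch.

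Mycth_2308149, at 83.3 ± 3.85 CPM in ΔMttrc-1 against 22.1 ± 0.81 CPM in MtWT on starch (SD, n = 3), differed by 1.91 ± 0.088, and Mycth_2309686 by 1.63 ± 0.11. Mycth_2305838 differed by 1.10 ± 0.17, and it fell just under the threshold without ΔMttrc-1 starch replicate 1 (0.997) or MtWT starch replicate 3 (0.98). The single decrease was that of Mycth_2300219, with 0.601, 0.575 and 0.287 CPM in ΔMttrc-1 against 1.39, 0.812 and 1.42 CPM in MtWT, at -1.29 ± 0.36. Libraries stood apart upwards in 9 members and downwards in 2 on starch, against 33.1% and 34.2% of all tested genes. For 17 members they overlapped, among them Mycth_108836, Mycth_2315383 and Mycth_2309542. The same ΔMttrc-1 starch libraries stand in the comparison with ΔMttrc-1 at 6 h on Avicel described before, so the values of a gene in both are not independent of each other.

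**Figure D4:**
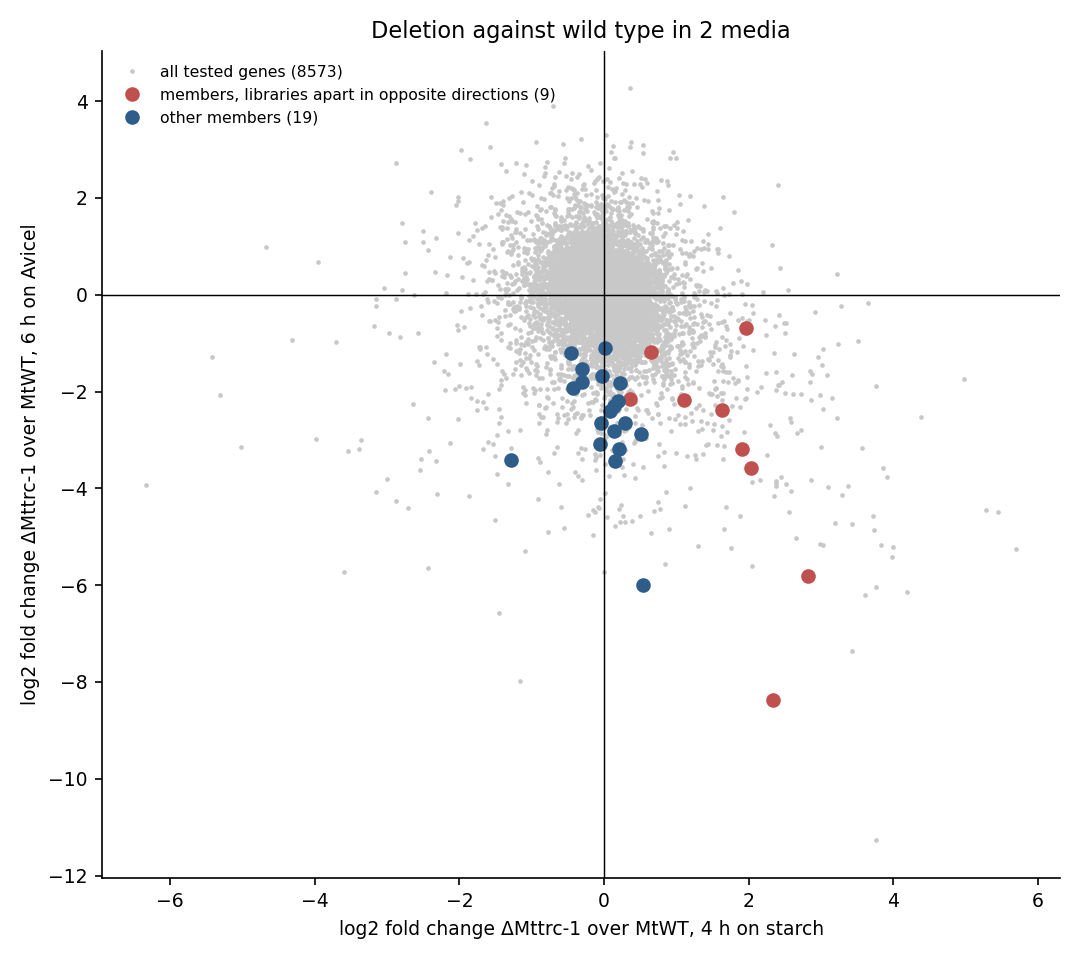
Log2 fold change of ΔMttrc-1 over MtWT at 4 h on starch (horizontal axis) and at 6 h on Avicel (vertical axis) for all 8573 tested genes (grey) and the 28 members. Red points are the 9 members whose libraries stood apart upwards on starch and downwards on Avicel, blue points are the other 19, and all 28 members, chosen on high MtWT values at 6 h on Avicel, lie below 0 on the vertical axis.

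Between 4 h and 6 h on Avicel, the time in which the members rose in MtWT, 7 members were called higher and 1 lower in ΔMttrc-1, where 9.44% of all tested genes were called higher and 9.55% lower. The rule set an upper limit on ΔMttrc-1 at 4 h, so this is a description as well. The median log2 fold change of the members was 0.51, against 0.04 over all tested genes, and libraries stood apart upwards in 16 members, downwards in 4 and overlapped in 8, where 39.9% of all tested genes stood apart upwards and 37.4% downwards. With library totals in place of TMM the median of all tested genes was 0.64, the members called higher numbered 15, and the calls over all genes were 2468 higher and 364 lower against 809 higher and 819 lower with TMM. The sign of 6 members turned from negative to positive with library totals, none of them called with TMM.

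Mycth_108836 had 9.19, 9.36 and 8.71 CPM at 6 h against 1.32, 0.993 and 1.34 CPM at 4 h in ΔMttrc-1, a log2 fold change of 2.89 ± 0.18. In MtWT it stood at 57.1 ± 2.42 CPM at 6 h against 9.32 ± 1.18 CPM at 4 h. Those MtWT values chose the gene, so the rises in the 2 strains were not compared. The 6 h level in ΔMttrc-1 was close to its starch level of 8.44 ± 1.00 CPM, with a log2 fold change of 0.11 ± 0.12. Mycth_2315383 had 3.44 ± 0.14 CPM at 6 h against 0.451 ± 0.20 CPM at 4 h in ΔMttrc-1, or 2.96 ± 0.26. The crotonase gene Mycth_112802 stood at 4.05 ± 0.94 CPM at 6 h against 1.02 ± 0.48 CPM at 4 h, or 1.96 ± 0.28.

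Mycth_2307074, Mycth_2299610 and Mycth_2307186 were the other members called higher with more than a handful of counts, at 1.33, 1.32 and 1.24 on the log2 scale. Mycth_2307186 was lost at 0.995 without ΔMttrc-1 Avicel 4 h replicate 3. Mycth_2309542 had 34 counts at 6 h and 3 counts at 4 h in ΔMttrc-1, a ratio of scaled counts of 6.63 with a 95% counting interval of 2.09 to 33.7. In MtWT it had 1445 counts at 6 h against 2 counts at 4 h, a ratio of 716 with an interval of 198 to 5917, which cover counting error only. The MtWT ratio is one of the values that chose the gene, so the 2 ratios were not compared.

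The lone decrease over time in ΔMttrc-1 was that of Mycth_2309660, with 0.212 ± 0.24 CPM at 6 h against 2.49 ± 0.58 CPM at 4 h, a log2 fold change of -3.54 ± 0.38. In MtWT this gene had 71.4 ± 6.36 CPM at 6 h against 8.41 ± 1.16 CPM at 4 h. Mycth_2306150 was at -1.33 in ΔMttrc-1 and was called without ΔMttrc-1 Avicel 4 h replicate 2 (-1.69) or Avicel 6 h replicate 3 (-2.18), and Mycth_2298519 at -0.96 was called without Avicel 4 h replicate 3 (-1.04) or Avicel 6 h replicate 1 (-1.31). Mycth_86350, at 0.81, was called higher without Avicel 6 h replicate 2 (1.07).

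When the conditions of level and late rise were asked of ΔMttrc-1 in place of MtWT, with at least 3 times the level at 4 h on Avicel and on starch, 28 genes met them. None of those 28 was a member, and none was among the 65 genes with a late rise in MtWT. As only 28 of 9109 genes met the conditions, an overlap of 0 says little about the members. Of the members, 4 reached 3 times their 4 h level in ΔMttrc-1 and 0 reached 3 times their starch level. The share of all genes that reached either limit was not counted.

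The other 37 genes with a late rise in MtWT were left out by the limits on levels at 4 h on Avicel. For 13 of them, MtWT at 4 h on Avicel already stood at 2 times starch or more. For the other 24, ΔMttrc-1 at 4 h on Avicel stood at 2 times MtWT or more. In ΔMttrc-1 at 6 h on Avicel against ΔMttrc-1 on starch, 2 of the 28 members were called higher and 9 lower with a median log2 fold change of -0.14, and 10 of these 37 genes were called higher and 12 lower with a median of 0.03. The members' calls are 7.14% and 32.1%, where 6.19% of all tested genes were called higher and 6.88% lower. On starch, 9 of these 37 genes were called higher and 5 lower in ΔMttrc-1 than in MtWT, beside 7 and 1 of the 28 members. At 6 h on Avicel, 33 of the 37 were called lower and 0 higher against MtWT, beside 27 and 0 of the members. Of all tested genes, 4.12% were called higher and 3.86% lower on starch, and 8.55% and 12.9% at 6 h on Avicel. MtWT values chose both sets, so these counts are a description. The differences between the sets were not tested.

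The secreted enzymes of cellulose breakdown had a different course, given for orientation since the study picked these genes on the same libraries. Of the 11 cellulase and LPMO genes, 10 were called higher and 0 lower in ΔMttrc-1 at 6 h on Avicel than in ΔMttrc-1 on starch, with a median log2 fold change of 4.87. In MtWT at 6 h against MtWT at 4 h on Avicel, 0 of the 11 were called higher and 4 lower, with a median of -0.81. Of all tested genes, 6.19% were called higher and 6.88% lower in the first comparison, and 8.4% and 5.67% in the second. Of the 10 UPR and ER genes, none was called in either of these comparisons, and their medians were -0.14 in ΔMttrc-1 and 0.10 in MtWT. Of the 2 starch genes, 0 were called higher and 1 lower in this comparison of ΔMttrc-1, and 1 higher and 0 lower in that of MtWT.

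In the order of the reference genes, the members were scattered, with 2 adjacent pairs. Mycth_2305468 and Mycth_2315383 are neighbours, and so are Mycth_2299608 and Mycth_2299610. The members of the first pair moved in opposite directions in ΔMttrc-1 at 6 h on Avicel against starch, at -1.08 ± 0.14 and 1.34 ± 0.19. Those of the second pair lay at 0.04 ± 0.13 and 0.17 ± 0.23, and neither passed.

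The genes next to members were not chosen by their values, except that a neighbour meeting the whole rule would itself be a member. Of 51 such neighbours, 48 were tested. In MtWT at 6 h against MtWT at 4 h on Avicel, 10 of the 48 were called higher and 2 lower, 20.8% and 4.17%, where 8.4% of all tested genes were called higher and 5.67% lower. The neighbours' median log2 fold change was 0.27.

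On starch, 6 of the 48 neighbours were called higher and 2 lower in ΔMttrc-1 than in MtWT, 12.5% and 4.17%. Over all tested genes these shares were 4.12% and 3.86%. At 6 h on Avicel, 7 neighbours were called higher and 12 lower, 14.6% and 25%, where all tested genes gave 8.55% and 12.9%. Several of these neighbours are named here after their values were seen. Mycth_2063631, beside Mycth_2315464, had 0.222 ± 0.067 CPM in ΔMttrc-1 and 58.3 ± 9.06 CPM in MtWT at 6 h on Avicel (SD, n = 3), while Mycth_2315464 itself had 5.30 ± 0.71 CPM in ΔMttrc-1 and 23.6 ± 0.31 CPM in MtWT. Both genes beside the crotonase gene Mycth_112802 were called higher in MtWT at 6 h than at 4 h on Avicel, Mycth_59137 at 2.01 ± 0.16 and Mycth_109499 at 1.88 ± 0.17 on the log2 scale. These 2 genes were also higher in ΔMttrc-1 than in MtWT on starch, at 2.05 ± 0.14 and 2.99 ± 0.20, beside 1.96 ± 0.22 for Mycth_112802. Mycth_90354, next to Mycth_86350, stood at 160 ± 2.30 CPM in ΔMttrc-1 and 11.7 ± 1.49 CPM in MtWT on starch, a log2 fold change of 3.77 ± 0.12, and at 9.32 ± 0.41 CPM in ΔMttrc-1 and 34.3 ± 2.47 CPM in MtWT at 6 h on Avicel.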

How the data were processed

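RNA was sequenced from 18 cultures, 3 in each of 6 groups. The authors mapped reads to predicted transcripts with TopHat2 2.0.8b and deposited counts of uniquely mapped reads from HTSeq 0.5.4p2. These versions are from the submitters' processing notes, and the study's methods name others. Neither build name nor strand setting is stated in the sources, so antisense partners cannot be told apart. The authors also deposited RPKM values, which served for alternatives, percentiles and implied lengths. Groups and replicate numbers came from sample titles. For MtWT replicate 3 the description repeats the name of replicate 2, which leaves the group unchanged. All 36 value columns were matched.

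The fit used edgeR 4.0.16 under R 4.3.3 (TMM, filterByExpr by group, robust quasi-likelihood fit of the 6 groups together, no replicate term). The filter kept 8573 genes and left out 536, with 0.00403% of counts. Calls needed a Benjamini-Hochberg adjusted p under 0.05 and an absolute log2 fold change over 1. Standard errors were derived from the F statistic and are approximate. CPM are TMM-scaled. Alternatives used DESeq2 1.42.0, limma 3.58.1 on log2(RPKM + 1) and log2(RPKM + 0.1), other scalings, no filter, a null hypothesis of a 2-fold difference, a replicate block and left-out libraries. The script was tested on simulated counts.

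The members, lists and naming rule were chosen with earlier results of these data known. Named members were the 10 highest in MtWT at 6 h on Avicel, the 6 largest and 6 smallest log2 fold changes in each of 2 comparisons (ΔMttrc-1 at 6 h on Avicel against ΔMttrc-1 on starch and against MtWT), those with a description, those in a fixed list, those in a run of 3 or more neighbours (there was none) and the 3 genes on each side of the threshold of 3. Other members are named after their values were seen. RefSeq assembly ASM22609v1 gave locus tags for 9086 of 9109 genes and the order of neighbours. No sequences were used. Of the lists formed, the description class of oxidation and reduction held 1 member, Mycth_108836, and the others held 0. Of its 99 tested genes, 20 were called higher and 10 lower in ΔMttrc-1 at 6 h on Avicel against starch. The shares of all tested genes were 6.19% higher and 6.88% lower. Of the 2 control genes, 0 were called, with a median log2 fold change of 0.11.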

Additional observations from a re-analysis of the deposited data

Results flagged for a closer look

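For 9 members every ΔMttrc-1 library was above every MtWT library on starch and below every MtWT library at 6 h on Avicel. Of all 8573 tested genes, 17.5% did the same. High MtWT values at 6 h on Avicel chose the members, and all 28 lay apart downwards there. Of the 3366 tested genes apart downwards at 6 h on Avicel, 1501 also lay apart upwards on starch. Beside that base, 9 of the 28 members are no excess. The opposite directions were what drew attention, and the difference between the media was not tested, because MtWT libraries of both media chose the members. The log2 fold change of ΔMttrc-1 over MtWT at 6 h on Avicel minus that at 4 h on starch was -10.71 for Mycth_2309660, -8.63 for Mycth_2306150, -5.61 for Mycth_86350, -5.10 for Mycth_2308149, -4.02 for Mycth_2309686 and -3.27 for Mycth_2305838. These 6 were called in both media. It was -2.65 for the crotonase gene Mycth_112802, which was not called on Avicel, and -2.51 for Mycth_2315464 and -1.85 for Mycth_86049, which were not called on starch. The 2 media also differ in time, 6 h against 4 h.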

How the results depend on the processing

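The 9 members called lower in ΔMttrc-1 at 6 h on Avicel against starch numbered 6 to 10 over all alternatives, the 27 called lower against MtWT at 6 h on Avicel 20 to 33, and the 7 called higher against MtWT on starch 5 to 7. All alternatives here include other sets of members, of 34 and of 20 genes. With the 28 members fixed and a library left out, 26 to 27 were called lower against MtWT at 6 h on Avicel. The count of members moved to 129 with a late rise of at least 2 times and to 13 with at least 4 times. Scaling by library totals kept 20 of the 28 and gave 34, and leaving out each rule library gave 25 to 33, with 20 kept every time. The 8 not always kept were Mycth_112802, Mycth_2294550, Mycth_2295258, Mycth_2298519, Mycth_2305838, Mycth_2309542, Mycth_2315383 and Mycth_86049.

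The 2 called higher in late-Avicel ΔMttrc-1 against starch became 5 with library totals, 0 with log2(RPKM + 1), 5 with log2(RPKM + 0.1), 0 against a null of 2-fold and 1 with only the 2 groups fitted (27 members tested), and 1 to 3 when a library was left out. Calls higher over all tested genes were 617 with library totals, 416 with log2(RPKM + 1) and 591 with log2(RPKM + 0.1). They were 296 against a null of 2-fold and 520 with only the 2 groups fitted, against 531 in the main fit. The 7 called higher between 4 h and 6 h on Avicel in ΔMttrc-1 became 15 with library totals, 15 with log2(RPKM + 0.1) and 4 against a null of 2-fold. Over all tested genes the calls higher were 2468, 2435 and 399 in that order, against 809 in the main fit. The 1 member called lower between 4 h and 6 h became 2 with DESeq2 and 1 to 2 without a library. The 1 called lower on starch became 0 with log2(RPKM + 1) and 0 against a null of 2-fold. The cause of these and the later moves was not tested.

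With the 34 members that library totals choose, an alternative added after seeing the data, 4 were called higher in late-Avicel ΔMttrc-1 against starch. In this set 2 were called lower on starch and 5 lower between 4 h and 6 h on Avicel. No share of all genes was set beside these counts. With only the 20 always kept, also added later, 0 were called higher against starch and 4 higher between 4 h and 6 h. In the main fit, 6.19% and 9.44% of all tested genes were called higher in these comparisons.

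Same-numbered replicates did not deviate together (correlations of at most 0.0856), so numbers name samples only. Between 4 h and 6 h on Avicel in ΔMttrc-1 each sample correlated best with its own number, which was not so in the other comparisons. With the replicate block, 1 member was called higher in late-Avicel ΔMttrc-1 against starch in place of 2, Mycth_2309542 being lost at an edgeR adjusted p of 0.0563, and no other member changed its call.

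Over all alternatives the sign turned in 4 members in ΔMttrc-1 at 6 h on Avicel against starch, in 0 against MtWT at 6 h on Avicel, in 10 between the strains on starch and in 7 between 4 h and 6 h on Avicel in ΔMttrc-1, 6 of these with library totals. None of them was called. Against starch, Mycth_2307186 was at 0.010 with library totals, 0.011 with log2(RPKM + 1) and 0.014 with log2(RPKM + 0.1). With a library left out it ran from -0.20 to 0.062, Mycth_2299608 from -0.014 to 0.10, Mycth_2294550 from -0.0573 to 0.26 and Mycth_2299610 from -0.0718 to 0.32. Of the 28 members, 18 averaged under 5 CPM in ΔMttrc-1 at 6 h on Avicel, where counting error is largest.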
